A study of Homo sapiens with 2 samples.

Results

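The genes examined here are 10 transcription factors that set or keep cell identity in the mammary epithelium, and the question was where RUNX1 was bound in and around them. They comprise 4 luminal factors (GATA3, FOXA1, ESR1 and ELF5) and 6 basal or general epithelial factors (TP63, SOX9, SOX10, GRHL2, TFAP2A and TFAP2C). A gene's window was its RefSeq interval on GRCh38 plus 50 kb at each end, and a RUNX1 peak counted for the gene if its summit fell there. Of 13591 peaks in the whole list, 20 met this rule, and 7 of the 10 genes had at least 1. Each peak fell in the window of only 1 of the 10 genes. The chromatin came from MCF10A, a cell line derived from non-cancerous human breast epithelium. In these cells RUNX1 had been deleted, a RUNX1 gene that doxycycline switches on had been added with a lentivirus, and doxycycline had been given at 1 µg/ml for 24 hours. The same cells gave 1 RUNX1 immunoprecipitate (80338845 tags kept) and 1 library of input DNA (87410774 tags kept). RUNX1 in these cells therefore came from the added gene and not from its own locus, and the knockout lines of the study were grown from single-cell colonies. An earlier immunoprecipitation of endogenous RUNX1 in the study showed no strong binding to chromatin. The paper names low expression of RUNX1 or low affinity of the antibody as possible reasons. Binding of endogenous RUNX1 at the sites below was not measured in these libraries. With 1 library of each kind there was no replicate and no test between samples. An interval on a pileup is a counting error of these libraries. An interval on a number of peaks treats the peaks as independent, and measures no spread between cultures or between genes. Transcript levels of the 10 genes were not measured in these libraries.

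The mammary gland is lined by luminal cells, which make milk and respond to hormones, and by an outer basal layer that contracts. GATA3, FOXA1 and ESR1 work together in hormone-responsive luminal cells, whereas p63, the product of TP63, is a defining factor of the basal layer. RUNX1 binds DNA through its Runt domain, with CBFB as its partner, at sites that read TGTGGT or TGCGGT.

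Peaks were spread unevenly over the 10 genes. ESR1 and TFAP2A had 6 peaks each, TP63 had 3, SOX10 had 2, and ELF5, GRHL2 and TFAP2C had 1 each. GATA3, FOXA1 and SOX9 had 0. Over all 20037 protein-coding genes, 52.1% had at least 1 peak by the same rule, against 7 of the 10 genes here, and 1.73% had 6 or more, as ESR1 and TFAP2A did. Long genes have larger windows. The windows of ESR1 and TFAP2A spanned 573 and 123 kb. Per Mb of window they held 10.5 and 48.8 peaks, beside a mean of 6.49 over the windows of all protein-coding genes. A peak lay inside 18.7% of all protein-coding genes and inside 5 of these 10 (ESR1, ELF5, TP63, GRHL2 and TFAP2A), of which ESR1, TP63 and GRHL2 span 473, 301 and 189 kb. The median pileup, which counts the extended ChIP tags over a summit, was 18 tags over the 20 peaks, and 18 over the whole list.

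**Figure D1:**
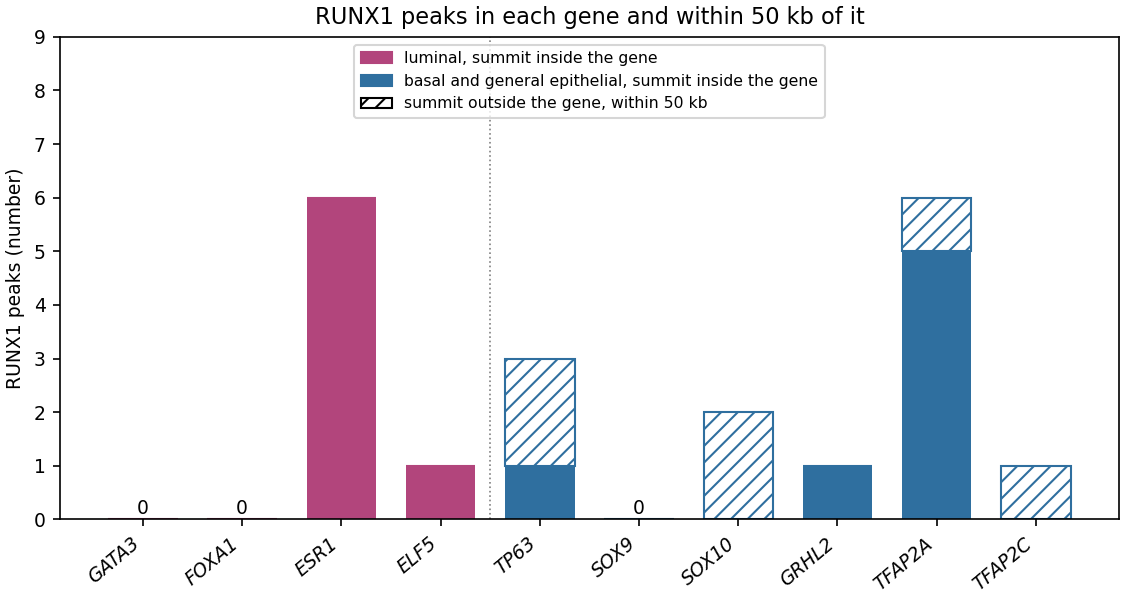
The bars give the number of RUNX1 peaks whose summit lay inside each gene (filled) or outside it within 50 kb (hatched), for luminal (pink) and basal or general epithelial (blue) genes. ESR1 and TFAP2A stand highest with 6 each, all 6 inside ESR1 and 5 inside TFAP2A, and GATA3, FOXA1 and SOX9 are at 0.

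**Figure D2:**
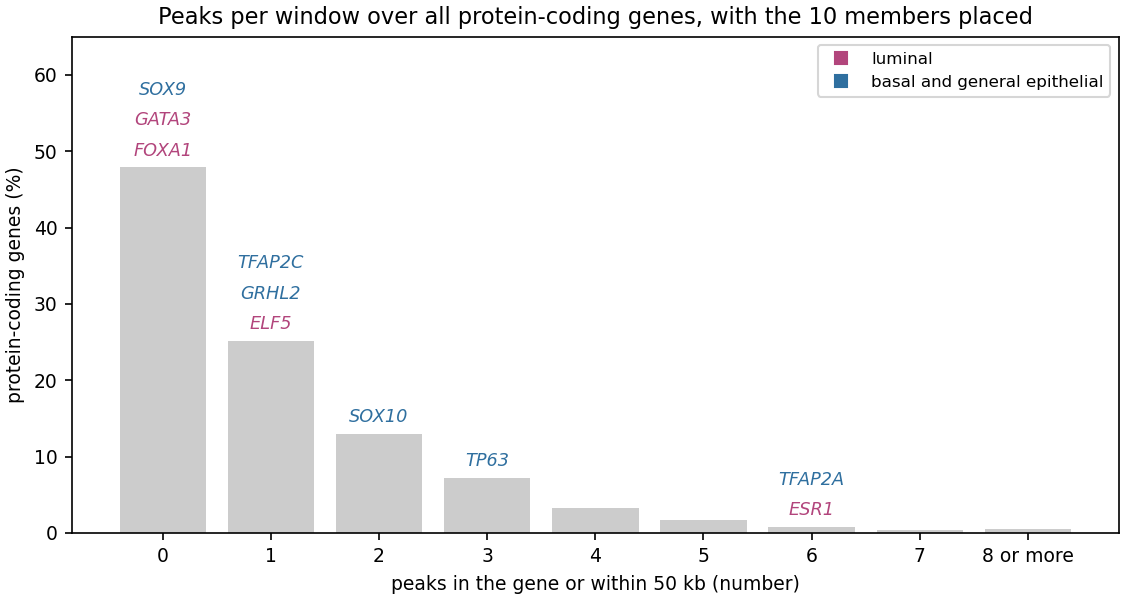
Grey bars give the percentage of all 20037 protein-coding genes with each number of peaks in the gene or within 50 kb, and the names place the 10 genes. At 0 peaks stand 47.9% of all genes along with GATA3, FOXA1 and SOX9, whereas ESR1 and TFAP2A stand at 6 peaks, where 0.813% of genes lie.

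TFAP2A encodes AP-2α, a factor that acts at many epithelial genes together with its relative AP-2γ. The gene spans 10396677 to 10419659 on chromosome 6 and is read towards lower coordinates. Its tallest peak, at 10418872 to 10419230, was also the tallest of the 20, with a pileup of 54 tags (exact 95% Poisson interval 40.6 to 70.5), a 14.6-fold enrichment over input and a −log10 q of 44.2. The summit lay 545 bp downstream of the first listed start of the gene. Only 111 of the 13591 peaks were higher, and 0.464% of all protein-coding genes had a peak of at least 54 tags in their window. The next 3 peaks followed further into the gene, at 1021, 1795 and 3926 bp from that start. Their pileups were 19 tags (11.4 to 29.7), 22 tags (13.8 to 33.3) and 22 tags (13.8 to 33.3), so the intervals of these 3 overlap each other and none reaches 40.6. The 4 summits fell within 3381 bp, with gaps of 476, 774 and 2131 bp. Of the whole list, 1.56% of the peaks had 3 or more others within 5 kb, as each of these had. Another peak inside the gene, 16.8 kb from the start, had 16 tags, and the last stood 21.6 kb upstream, inside the non-coding gene MIR5689HG, with 17 tags. The input level, which is the local background recovered from pileup and fold enrichment, ranged at the 6 peaks from 1 to 1.25 times a genome background of 2.2 tags.

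Sequence before the first start of TFAP2A and GATA3, and short stretches at starts of ESR1 and EHF, is shown because it sets the promoter nearest to the tallest peak beside promoters that hold the RUNX letters. RefSeq promoter windows on GRCh38.p14 (250 bases before to 50 after a start) were listed for 6 of the 10 genes, 17 windows in all. The letters searched were TGTGGT and TGCGGT on both strands, printed in capitals. They occurred in 4 of the 17 windows, 3 of GATA3 and 1 of ESR1, against 19.6% of all 35116 windows. A peak overlapped 0 of the 17 windows, beside 1.65% of all windows, so that 0 is near the background. The window at the first start of TFAP2A held neither motif, and the tallest peak ended 380 bp from it. The window at the first start of GATA3 held TGCGGT 149 bases before the start and again 44 bases after it, with 0 peaks within 50 kb of the gene. EHF belongs to a further list described below and is shown because it was the only one of the 18 genes of those lists with listed windows that had a peak over one, which 1.98% of all genes with windows had. Its ACCACA, the reverse complement of TGTGGT, lay inside a peak of 22 tags at 34624076 to 34624438, its middle 37 bp from the summit. The same EHF window held TGTGGT 187 bases before the start, outside the peak and not printed. The ESR1 window also held ACCGCA, the reverse complement of TGCGGT, 5 bases after the start, beyond the stretch printed. A match of letters is not evidence of a site, and sequence inside the member peaks themselves was not analysed here.
TFAP2A, 250 bases before the start, chr6:10419660-10419909, minus strand: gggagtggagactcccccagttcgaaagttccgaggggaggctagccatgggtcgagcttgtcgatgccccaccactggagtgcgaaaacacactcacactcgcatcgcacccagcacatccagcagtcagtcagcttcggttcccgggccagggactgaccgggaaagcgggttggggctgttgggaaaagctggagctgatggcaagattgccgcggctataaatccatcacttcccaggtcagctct
GATA3, 250 bases before the start, chr10:8045083-8045332, plus strand: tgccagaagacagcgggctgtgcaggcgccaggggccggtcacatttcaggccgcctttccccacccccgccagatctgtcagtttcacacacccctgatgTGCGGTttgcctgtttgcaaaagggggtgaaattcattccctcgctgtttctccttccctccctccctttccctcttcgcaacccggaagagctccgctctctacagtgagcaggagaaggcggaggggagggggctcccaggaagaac
ESR1, window of an internal start, chr6:151806946-151806975, plus strand: aagtacagtacTGTGGTccaacataaacac
EHF, across a start, chr11:34624242-34624271, plus strand: gggtgtctagagACCACAttctcaccctgc

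The pattern at ESR1, the oestrogen receptor α gene, was different in layout. ESR1 spans 151656672 to 152129619 on chromosome 6, and its 6 summits all lay inside it. In order along the gene their pileups were 13, 18, 20, 22, 38 and 19 tags. The tallest, at 151962448 to 151962759, had 38 tags (26.9 to 52.2), a 12.2-fold enrichment and a −log10 q of 28.6, and 451 peaks of the list were higher. A peak of at least 38 tags was present in the windows of 3.3% of protein-coding genes. The 5 other ESR1 peaks had fold enrichments of 4.37 to 6.56, and their counting intervals overlap each other. The interval of the tallest also overlaps theirs, except that of the peak of 13 tags (6.92 to 22.2). The tallest peak and its neighbour of 22 tags (13.8 to 33.3) were 4.11 kb apart, and every other gap was 11.9 kb or more. RefSeq lists 6 starts for ESR1, and the nearest of them was 4.52 kb from the peak of 13 tags and 60.4 to 195 kb from the other 5. The tallest peak was thus 153 kb from any listed start, against 0.545 kb for that of TFAP2A. The input level at the 6 peaks ran from 1 to 1.25 times background.

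**Figure D3:**
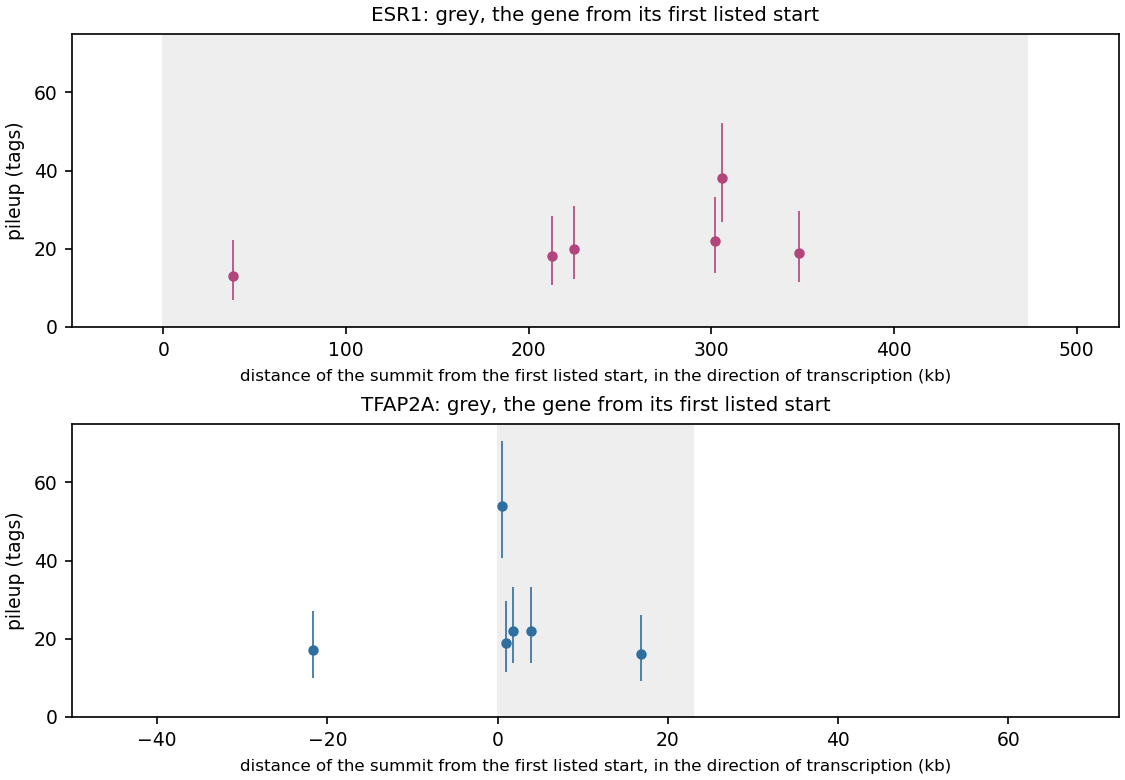
Each point is a RUNX1 peak in the window of ESR1 (top) or TFAP2A (bottom), placed by the distance of its summit from the first listed start in kb and by its pileup in tags, with exact 95% Poisson intervals as bars and the gene in grey. The ESR1 peaks lie 38.4 to 348 kb into the gene, whereas 4 of the 6 TFAP2A peaks lie within 3.93 kb of the start.

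Among the other luminal genes, ELF5, an ETS factor of the milk-producing lineage, had 1 peak at 34501758 to 34501831 on chromosome 11. It lay inside the gene, 9.94 kb downstream of its listed start, and its pileup of 12 tags (6.2 to 21) was the lowest of the 20, with a 4.06-fold enrichment. A higher pileup was found in 94.2% of the list. GATA3, a zinc finger factor needed for luminal cells, had 0 peaks within 50 kb, and the nearest summit was 58.1 kb past the end of the gene with 14 tags. FOXA1, which opens chromatin for the oestrogen receptor, had its nearest summit 271 kb away, with 17 tags. A nearest peak more than 200 kb away was seen for 16.9% of protein-coding genes. Where the input was at the genome background the lowest listed pileup was 10 tags, and at 2 to 3 times that input it was 15. The peaks within 5 Mb of GATA3 and FOXA1 had median input levels of 1.25 and 1.17 times background. Binding below such limits at GATA3 or FOXA1 was not detectable in this list.

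Of the basal and general epithelial genes, TP63 on chromosome 3 (189596746 to 189897276) had 3 low peaks. They stood 32.7 kb outside the gene on its lower-coordinate side with 18 tags (10.7 to 28.4), inside it with 15 tags (8.4 to 24.7), and 1.46 kb past its other end with 14 tags (7.65 to 23.5). The intervals of the 3 overlap. The inner peak, 33.1 kb downstream of the listed start, had the lowest fold enrichment of the 20 at 3.42, over an input 1.67 times background. A taller peak of 47 tags (34.5 to 62.5) stood 65.7 kb from the gene at 189530859 to 189531154, outside the 50 kb limit, with an 8.58-fold enrichment and an input level of 2.09. TP63 was the protein-coding gene nearest to it.

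GRHL2, a grainyhead factor that maintains epithelial junctions, had 1 peak inside the gene at 101515962 to 101516204 on chromosome 8, 23.6 kb from its lower-coordinate end. Its 23 tags (14.6 to 34.5) were the third highest pileup of the 20, with a fold enrichment of 3.68. Its input level, 2.5 times background, was the highest of the 20, and fold enrichment is computed against it. For comparison, the TFAP2A peak of 22 tags with an input level of 1 had a 7.18-fold enrichment. The 68 other peaks within 5 Mb of GRHL2 had a median input level of 1.41, against 1 to 1.25 around the 9 other genes. The part of the raised input in the height of the GRHL2 peak was not tested.

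SOX10, a factor of neural crest and some mammary epithelial cells, had 2 peaks of 14 tags each (7.65 to 23.5), both outside the gene. They lay 38.2 kb away inside MICALL1 and 15.5 kb away inside POLR2F, so neither had SOX10 as its nearest protein-coding gene. TFAP2C, which encodes AP-2γ, had 1 peak of 16 tags (9.15 to 26) at 56653367 to 56653491 on chromosome 20, 14.2 kb outside the gene. The AP-2 genes thus had 6 peaks and 1 peak. Their windows were of similar length, 123 and 110 kb. The Poisson intervals of the counts, 2.2 to 13.1 and 0.0253 to 5.57, overlap. They treat the peaks as independent, although the clustered TFAP2A summits fell within 3381 bp. SOX9, a factor of progenitor cells, had 0 peaks, and its nearest summit was 212 kb away with 17 tags and a 3.22-fold enrichment.

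**Figure D4:**
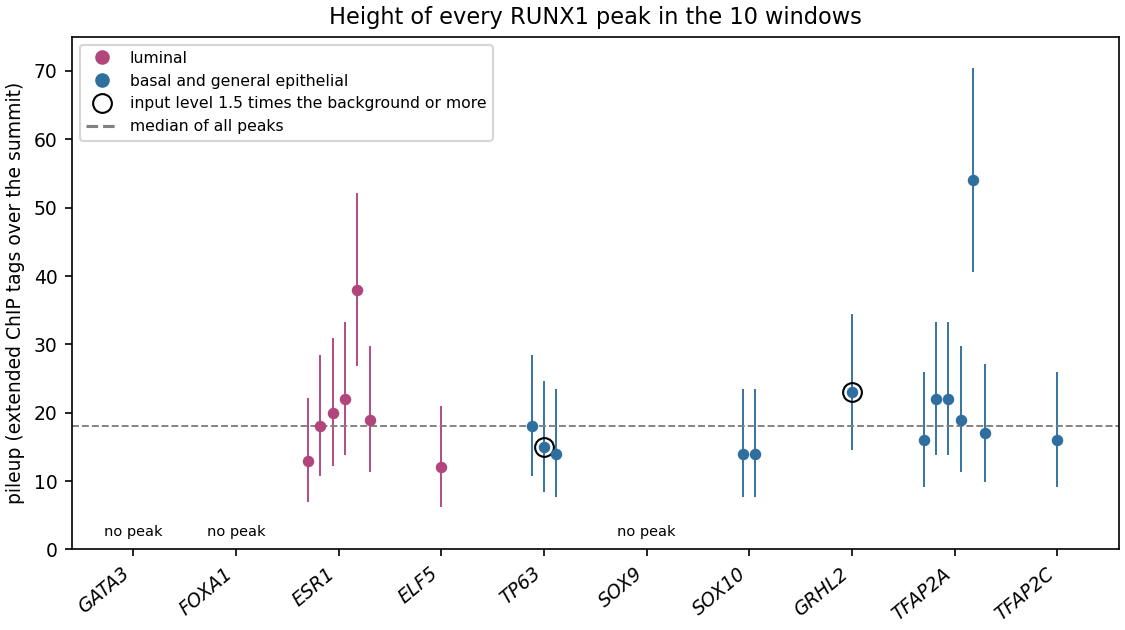
Each point is the pileup in tags of 1 of the 20 peaks, ordered along the chromosome within a gene, with its exact 95% Poisson interval, and rings mark an input level of at least 1.5 times the genome background. Only the tallest peaks of TFAP2A (54 tags) and ESR1 (38 tags) have intervals wholly above the list median of 18 tags, and the ringed peaks belong to TP63 and GRHL2.

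Luminal and basal or general epithelial genes were then compared as classes. By number, 2 of 4 luminal genes and 5 of 6 basal or general epithelial genes had a peak, beside the 52.1% of all protein-coding genes. The luminal windows held 7 peaks in 0.944 Mb, or 7.42 per Mb (2.98 to 15.3), and the other class held 13 in 1.14 Mb, or 11.4 per Mb (6.07 to 19.5). The mean over the windows of all protein-coding genes was 6.49 per Mb, and both intervals contain it and overlap. These intervals pool the genes of a class and treat peaks as independent, so they do not measure the spread between genes. In each class 1 gene carried much of the count. Without ESR1 the luminal windows held 1 peak, or 2.7 per Mb (0.0683 to 15), and without TFAP2A, an alternative chosen after seeing the data, the other class held 7, or 6.88 per Mb (2.77 to 14.2). When a fold enrichment of 5 or more was required, the classes held 5 peaks each, in ESR1 for the luminal class and in TP63 and TFAP2A for the other. Such a peak was present at 3 of the 10 genes, against 35.1% of all protein-coding genes.

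By distance, all 7 luminal summits lay inside the luminal gene itself, and 7 of 13 lay inside their own gene in the other class, with the outer 6 at 1.46 to 38.2 kb. Counting any protein-coding gene, 9 of those 13 summits lay inside one, beside 47.3% of the whole list. Gene bodies made up 57.6% and 47.4% of the windows of the 2 classes, and 6 of the 7 luminal summits were in ESR1 alone. The median distance to the nearest listed start was 72.3 kb over the 7 luminal peaks and 9.55 kb over the 9 peaks of TP63 and TFAP2A, the only genes of the other class with a listed start. By pileup, the luminal peaks had a median of 19 tags (range 12 to 38) and the others 17 tags (range 14 to 54). The ranges overlap, and 4 of 7 and 5 of 13 peaks exceeded the list median of 18. The median fold enrichment was 6.12 (4.06 to 12.2) and 4.79 (3.42 to 14.6). The input level was within 1% of the genome background for 5 of the 7 luminal peaks and 3 of the 13 others, beside 39.5% of the whole list. No peak of either class had a lower level, so these may include sites with input below the background.

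Further regulators of the same lineages were examined to place the 10 genes. Of 12 further luminal factors, 8 had a peak in the gene or within 50 kb, and of 12 further basal or general epithelial factors 5 did, beside 52.1% of all protein-coding genes. STAT5A and STAT5B were both counted through the same peak of 15 tags, which lay inside STAT5B. Each list held 13 distinct peaks at 7.08 per Mb (3.77 to 12.1). The overlap of the STAT5A and STAT5B windows entered the luminal length once for each gene. The highest pileups of the luminal list were at ELF3 and EHF, epithelial ETS factors related to ELF5, and at NRIP1, a corepressor of the oestrogen receptor. ELF3 had 3 peaks of 19 to 31 tags, all outside the gene and all with an input level of 1.53 to 2.09. EHF had 3 peaks inside the gene, of 13, 15 and 22 tags, the last with its summit 37 bp past a listed start. The 22 tags of NRIP1 lay 49.6 kb away, close to the limit of the window, with a 4.92-fold enrichment and an input level of 1.67. In the other list GRHL3, a relative of GRHL2, had 4 peaks, and its tallest, of 37 tags (26.1 to 51) and 31 tags (21.1 to 44), were 604 bp apart and 3.06 and 2.46 kb downstream of its first listed start. OVOL1, an epithelial zinc finger factor, had 1 peak of 23 tags 5.64 kb away, nearer to AP5B1, and TP73, a relative of TP63, had 3 peaks of 15 to 22 tags. The one of 19 tags lay 37 kb outside TP73, inside SMIM1. GRHL1 and TFAP2B, the relatives of GRHL2 and TFAP2A, had 0 peaks.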

How the data were processed

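Chromatin immunoprecipitation with sequencing (ChIPseq) of RUNX1 and input DNA were available as 1 library each, grouped by the antibody in their labels. The submitters' processing notes name Bowtie2 and hg38. Per the file headers, the authors called peaks with MACS 2.1.2 at a q-value limit of 0.05, extended 54 bp tags to 74 bp and kept 1 tag per position and strand, so that a pileup cannot exceed 148. The libraries held 89501295 (ChIP) and 94686274 (input) tags before and 80338845 and 87410774 after this limit. The deposited pileup is a signal in tags, the deposited fold enrichment a ratio of pileup to local input background (1 added to each), and the deposited p and q are −log10 values. None was changed.

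Gene intervals and promoter windows came from RefSeq on GRCh38.p14. All 10 genes and 24 further genes were matched by symbol. Starts were listed for 6 of the 10. The input level was recovered as (pileup + 1) / fold enrichment − 1 and divided by the genome background, which is the kept ChIP tags times 74 bp over the effective genome size. No peak of the 10 genes or the further lists had a level below 1. A level of 1 may therefore stand for input at or below the background. Counts are given beside those over 20037 protein-coding genes of chromosomes 1 to 22, X and Y. Intervals are exact 95% Poisson intervals, and those on numbers of peaks treat the peaks as independent. Genes and lists were chosen with earlier results of these data known. Named genes are the 10 members, the 3 genes of highest pileup in each further list and the genes in or nearest to member peaks. Outside this rule, AP5B1 and SMIM1 are named as nearest to peaks of a further list. TTC6, SLC39A11, ABTB2 and BMP7 are named as nearest to tall peaks within 500 kb of a member. GRHL1, TFAP2B, STAT5A, STAT5B and MIR5689HG were named after their values were seen. Python 3.11.15, pandas 2.3.3 and SciPy 1.17.1 were used, and window counting was tested on simulated summits. Alternatives were other limits of q, fold enrichment and window, nearest gene only, merging, and leaving out single genes.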

Additional observations from a re-analysis of the deposited data

How the results depend on the processing

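Of 90 alternatives over 8 class results, 74 left a count within 1.5 times or a median within its order-statistic interval. Part of the 74 was fixed in advance, so that number does not measure stability. For the 7 luminal peaks the interval was their full range, 12 to 38 tags and 0 bp. A setting that only removed luminal peaks could therefore not move these medians. The q limit of 0.01 removed no peak from either class. The number of luminal peaks went from 7 to 2 with equal windows of 50 kb on either side of the first listed start and to 1 without ESR1, and luminal genes with a peak went from 2 to 1 at a fold enrichment limit of 5 or without ESR1. The number of basal and general epithelial peaks went from 13 to 5 at a 5-fold limit, 7 in the gene alone, 8 with 5 kb on either side, 7 with equal windows (starts listed for 2 of 6 genes) and 7 without TFAP2A, which was added after seeing the data. Genes of that class with a peak went from 5 to 2, 3, 3 and 2 under the first 4 of these. Each of these settings counts fewer peaks, bases or genes by construction. The median distance of luminal summits went from 0 to 72325 bp when taken to the nearest listed start, and on the fold scale the class medians were 6.12 and 4.79. No paired analysis was possible because the series has a single immunoprecipitate and a single input. The lowest listed pileup was 10 tags, and 15 where the input was 2 to 3 times the genome background. Weaker sites could not be listed.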

Other observations

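Within 500 kb of each gene the number of peaks was 5 for GATA3, 3 for FOXA1, 12 for ESR1, 16 for ELF5, 12 for TP63, 8 for SOX9, 25 for SOX10, 6 for GRHL2, 12 for TFAP2A and 10 for TFAP2C. Of all protein-coding genes 94.8% had a peak at this range, with a median of 7 (quartiles 4 and 10). Of the 3 genes with 0 within 50 kb, GATA3 and SOX9 were thus near the background, and FOXA1 was below the lower quartile. ESR1, ELF5, TP63, SOX10 and TFAP2A were above the upper quartile. Around GATA3 the tallest had 22 tags (13.8 to 33.3) at 231 kb, with GATA3 as its nearest protein-coding gene. Around FOXA1 it had 21 tags (13 to 32.1) at 376 kb, nearer to TTC6, and around SOX9 27 tags (17.8 to 39.3) at 263 kb, nearer to SLC39A11, the last pair each with an input level of 1.67. For ELF5 the tallest peak in this range had 37 tags (26.1 to 51) inside ABTB2, 134 kb from the gene, and for TFAP2C it had 32 tags (21.9 to 45.2) at 392 kb, nearer to BMP7. Such distances take in many other genes, and no link of these peaks to the named factors was measured.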
